A study of Bos taurus with 47 samples.

Results

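In cattle, 14 of the 20526 genes measured had a high RNA level in both skin fibroblasts and cells derived from IVF blastocysts, and a low median level in oocytes and in IVF embryos of every stage. A gene was chosen when its median normalized read count was at least 200 in fibroblasts and at least 200 in cells derived from IVF blastocysts, and at most 20 in oocytes and in IVF 2-cell embryos, 8-cell embryos, morulae and blastocysts. The conditions were met by 16 genes, of which 2 were left out by an identifier list given with the rule. The members are numbered from 1 to 14 by their median in cells derived from IVF blastocysts, highest first, and the number serves only as a name. The members were thus chosen by measured levels in fibroblasts, oocytes and IVF samples, and the levels in those groups are descriptions. The samples made by nuclear transfer took no part in the choice.

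The series held 47 RNA sequencing libraries in 12 groups. The fibroblasts (Fb, 4 libraries) were a primary culture from an ear biopsy of 1 bull of a Brahma Spanish cross, and the same line supplied the donor nuclei for somatic cell nuclear transfer (scNT), after serum starvation. Oocytes (Oo, 4 libraries) had been matured in vitro to the MII stage, and IVF used semen of a Holstein bull. IVF and scNT embryos were taken as pools of 20 embryos on day 2 (2-cell, 2c), day 3 (8-cell, 8c), day 6 (morula, Mo) and day 8 (blastocyst, Bl), and were grown on bovine cumulus cells in serum-supplemented medium. Blastocyst-derived cells (BDC) of both origins completed the series. There were 4 libraries in each group, apart from the scNT morulae, where replicates 2, 3 and 4 were analysed. The labels do not describe how the derived cells were made, which cell type they are or how many blastocysts they came from. They also differ on the number of embryo pools, so p-values measure the spread between these libraries, which may be technical.

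Fibroblasts are connective tissue cells that secrete and remodel extracellular matrix, and they grow readily in culture. In nuclear transfer, the nucleus of such a cell is placed in an egg whose own nucleus has been removed, and the egg's factors must silence the somatic programme. The early embryo runs first on RNA stored in the oocyte, and its own genome becomes active some divisions later, in cattle around the 8-cell stage. A blastocyst holds an inner cell mass, which forms the body, and a trophectoderm, which forms the placenta, and both can give rise to cells that grow in culture.

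The files give Ensembl identifiers without gene names, and a reference table that pairs RefSeq genes with names matched 0 of them. The members are therefore described by identifier or by number, their functions and sequences are not given, and lists of marker genes could not be applied to any group. No fibroblast, trophoblast, epithelial or cumulus cell marker could be read in any library for the same reason, so the labelled cell types were not checked against markers and the part of other cells in the results was not tested. Gene lengths were not known, so a level is compared between samples for 1 gene and not between genes. Libraries held 4608099 to 16642370 recovered reads, and a value of 1 read was worth between 0.477 and 2.04 normalized counts.

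The nearest genes outside the thresholds show how the choice divides a continuous range. The lowest fibroblast median among the members was 266.7 normalized counts, and the nearest gene that failed only this condition stood at 188.35. In cells derived from IVF blastocysts the lowest member stood at 206.55 and the nearest outside at 172.3. The highest member in IVF 8-cell embryos stood at 19.15, against 24.9 for the nearer of 2 genes that failed only there. In IVF blastocysts the highest member stood at 16.5, and 10 genes failed only there, with medians from 23.95 to 182. No gene failed only in oocytes, IVF 2-cell embryos or IVF morulae.

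The set was a small intersection of larger groups. Of all genes, 5972 reached 200 in fibroblasts, 6138 reached it in cells derived from IVF blastocysts and 4867 reached it in both. Among the 7141 genes at 20 or less in oocytes and in IVF embryos of every stage, 100 reached 200 in fibroblasts and 81 reached 200 in cells derived from IVF blastocysts.

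One fibroblast library stood apart and has to be known before the levels are read. Fibroblast replicate 3 was the lowest of the 4 fibroblast libraries for 14 of 14 members, and it was the lowest for 48.1% of the 5972 genes with a fibroblast median of at least 200. For the members its level was 5.38% to 41.1% of the median of the other 3 libraries, with a median over members of 11.0%, against a median of 90.1% over the 5972 genes. In this library 8 of 14 members reached 200, and 1 member was below 20. The members summed to 0.0687% of all normalized counts in replicate 3 and to between 0.513% and 0.695% in the other 3 libraries. Ratios, differences and correlations that rest on fibroblasts are given with and without it.

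**Figure D1:**
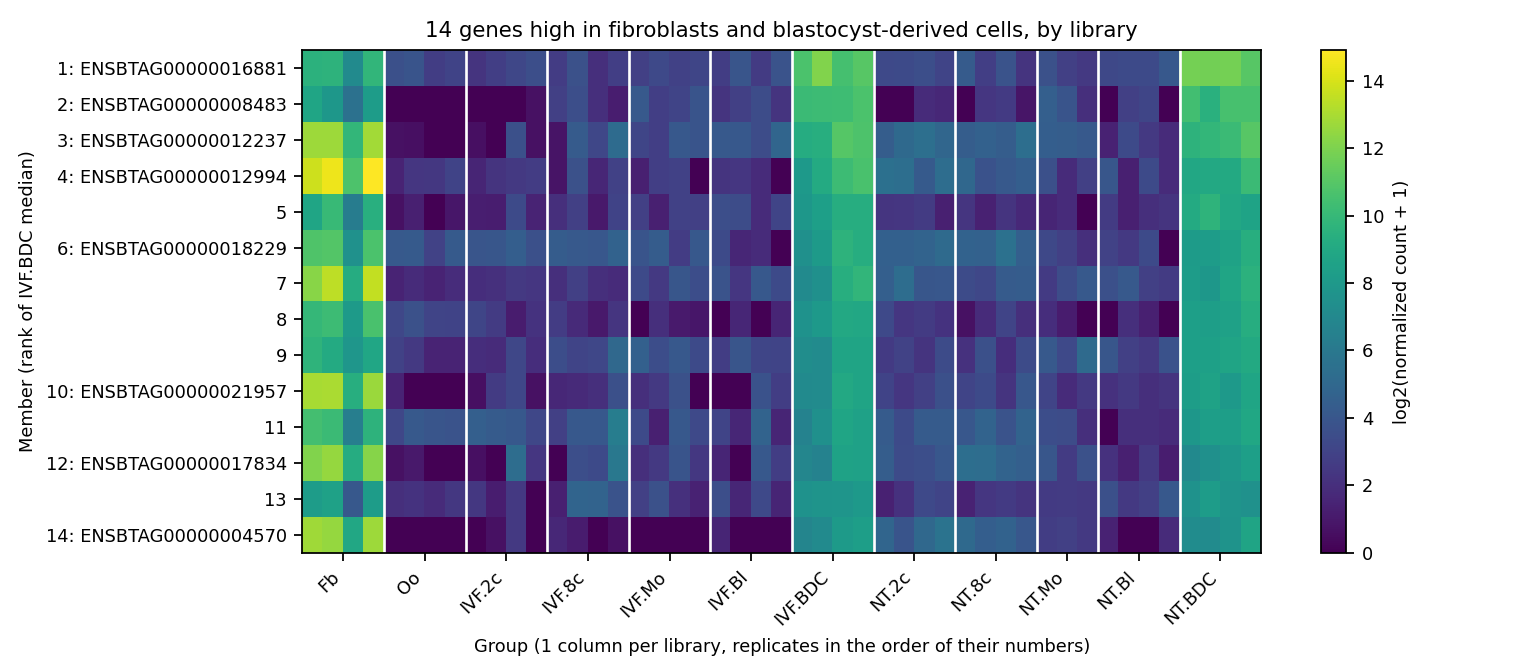
Level of each of the 14 members (rows, numbered by their median in IVF-derived cells) in each of the 47 libraries (columns, by group), as log2(normalized count + 1). Fibroblasts and both kinds of derived cells are high, with fibroblast replicate 3 lower than the other 3 fibroblast libraries. Oocytes and embryos are low, and the scNT 2-cell and 8-cell columns hold the highest embryo values of several members.

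Averaged over the 14 members, the log2(value + 1) level was 10.23 ± 1.57 (SD, n = 4) in fibroblasts, or 11.01 ± 0.0892 (SD, n = 3) without replicate 3, 8.72 ± 0.73 (SD, n = 4) in IVF-derived cells and 8.93 ± 0.31 (SD, n = 4) in scNT-derived cells. It was 1.73 ± 0.24 (SD, n = 4) in oocytes. Fewer expressing cells and less RNA per cell cannot be told apart in these bulk samples.

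Within the set, the balance between fibroblasts and IVF-derived cells ran from 4.66-fold higher in the derived cells to 31.4-fold higher in fibroblasts. The median was higher in the derived cells for 2 members. In the remaining 12 it was higher in fibroblasts, by up to 2 times for 3 members, by 2 to 10 times for 4 and by more than 10 times for 5. Both groups took part in the choice, so these ratios carry no test.

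ENSBTAG00000008483 (member 2) had the largest balance towards derived cells. Its fibroblast values were 432.9, 236.4, 45.6 and 297.0 normalized counts, and its values in IVF-derived cells were 1144.3, 1220.4, 1262.6 and 1632.5. Every derived library was above every fibroblast library, and the ratio of medians was 4.66, or 4.18 without fibroblast replicate 3. ENSBTAG00000016881 (member 1) had fibroblast values of 772.1, 789.3, 138.6 and 899.4 and IVF-derived values of 1683.2, 4400.9, 1455.1 and 2073.6. These groups did not overlap either, and the ratio of medians was 2.41, or 2.38 without fibroblast replicate 3.

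At the other end stood ENSBTAG00000004570 (member 14), with fibroblast values of 7124.5, 6084.8, 501.3 and 6894.5 and IVF-derived values of 110.3, 139.2, 273.9 and 327.6. Its lowest fibroblast library, replicate 3, was still above its highest derived library. The fibroblast median was 31.4 times the derived one, and 33.4 times without replicate 3. ENSBTAG00000021957 (member 10) had fibroblast values of 8120.1, 8469.3, 640.7 and 6583.1 against derived values of 141.8, 148.5, 519.2 and 420.3, again without overlap. Its ratio of medians was 25.8, or 28.6 without replicate 3.

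**Figure D2:**
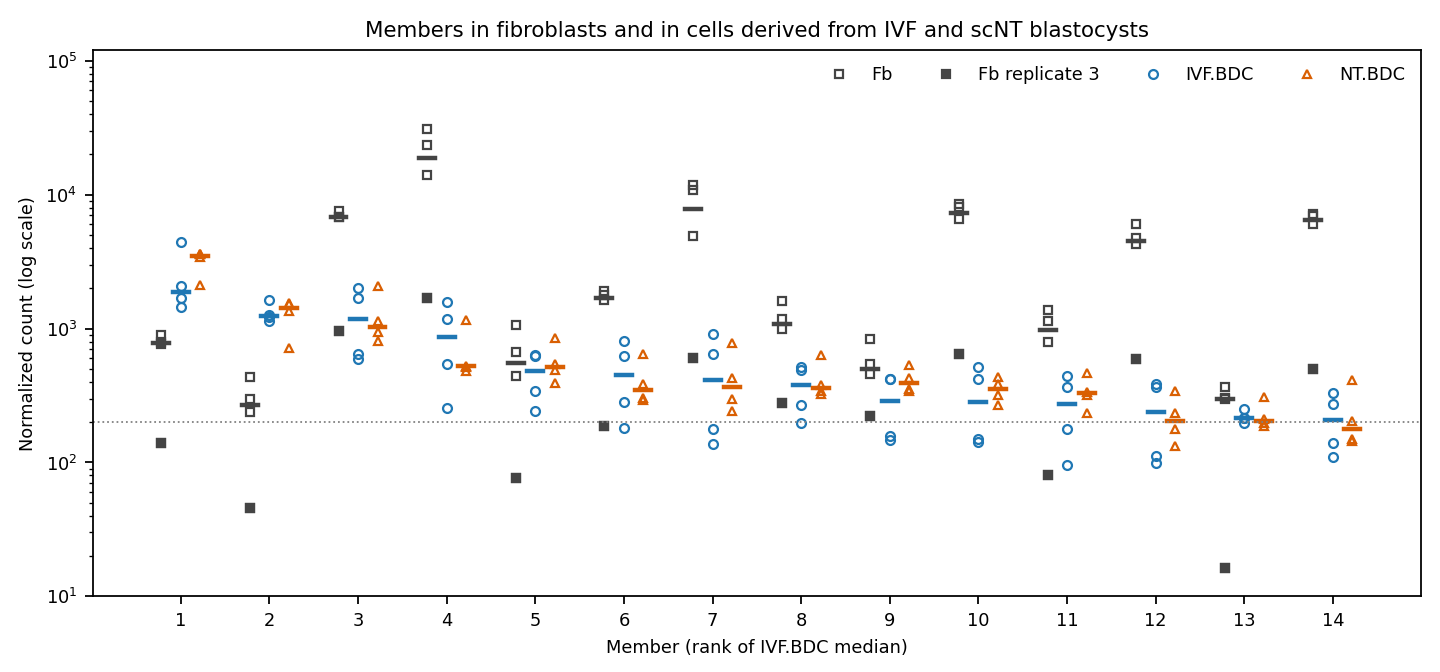
Normalized count (log axis) of each member in fibroblasts, IVF-derived cells and scNT-derived cells, 1 point per library with the group median as a bar, and fibroblast replicate 3 as filled squares. Members 1 and 2 have their fibroblast points below the derived cells, members 4, 7, 10, 12 and 14 have their fibroblast medians more than 10 times above those of IVF-derived cells, and the dotted line marks the threshold of 200.

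The libraries of derived cells also differed among themselves. Replicates 3 and 4 of the IVF-derived cells were both above replicates 1 and 2 for 13 of 14 members, against 26.0% of the 6138 genes that reached 200 in this group. In replicate 1, 5 of 14 members reached 200, and in replicate 2, 8 members did. All 14 reached it in replicates 3 and 4. ENSBTAG00000016881 was the exception to the order, with its highest value, 4400.9, in replicate 2.

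Among scNT-derived cells, replicate 4 was the highest library for 11 of 14 members and the lowest for 3, against 25.1% and 27.1% of the 6181 genes that reached 200 there. ENSBTAG00000012994 (member 4) stood at 482.8, 519.1, 527.4 and 1167.3, with replicate 4 far above the other 3. ENSBTAG00000016881 ran the other way, at 3598.4, 3418.6, 3614.6 and 2107.7. As deviations from their own group's mean over the 8 derived libraries, the 91 pairs of members had a median Pearson r of 0.749 (from -0.644 to 0.985), and 74 pairs were above 0. ENSBTAG00000016881 had a median r of -0.472 with the other members. The points share their libraries, depth and replicates, so these correlations are descriptions only.

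The thresholds of the rule could be read a second time in the scNT samples, which had not been used. A median of at least 200 in scNT-derived cells was reached by 13 of 14 members, against 30.1% of all 20526 genes. The exception was ENSBTAG00000004570, at 176.5. A median of at most 20 in all scNT embryo groups was met by 8 members, against 35.2% of all genes. Both conditions together were met by 8 of 14 members (57.1%), against 75 of all 20526 genes (0.365%). The members had been chosen by the same thresholds in oocytes and IVF samples, so all genes are not a matched set for any of these shares. Sets chosen in a more similar way are given in the next paragraph. The 6 members that failed the low condition did so in scNT 2-cell or 8-cell embryos, and no member passed 20 in scNT morulae or blastocysts.

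Genes that met every condition but 1 give a scale for this. Of the 82 genes that failed only the condition on IVF-derived cells, 3 reached 200 in scNT-derived cells. Of the 65 genes that failed only the condition on fibroblasts, 57 reached it. In the first set 4 genes passed 20 in scNT 2-cell or 8-cell embryos, and in the second set 0 did, against 6 of the 14 members. Later stages went the other way. In scNT morulae 4 genes of the first set and 1 of the second passed 20, and in scNT blastocysts 6 and 13 did, against 0 members at either stage. The sets differ in fibroblast level, with a median over genes of 407 normalized counts in the first, 1.55 in the second and 1390 among the members, so these shares are set side by side without a test.

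Cells derived from scNT and IVF blastocysts were compared to ask whether the members reach the same level from both kinds of embryo. No member was called different, which does not show that the levels are equal. ENSBTAG00000008483 had values of 1341.8, 711.1, 1522.4 and 1546.9 in scNT-derived cells, which overlapped the IVF-derived values given above. Its mean was 1281 ± 390 (SD, n = 4) in scNT-derived and 1315 ± 217 (SD, n = 4) in IVF-derived cells. ENSBTAG00000016881 had a mean of 3185 ± 724 (SD, n = 4) against 2403 ± 1356 (SD, n = 4). Its difference was 0.52 on the log2 scale, with a 95% interval of -0.23 to 1.26. The IVF-derived libraries had been used to choose the members, so this comparison is not independent of the choice.

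Of the 14 members, 0 were called higher and 0 lower by limma, where 0.638% of 12390 genes were called higher and 0.702% lower in scNT-derived cells. With shares this small over all genes, a count of 0 is not particular to the members. At an unadjusted p under 0.05 the count was also 0. It was 0 as well with edgeR on the recovered reads, which called 0.589% of genes higher and 0.67% lower, and with DESeq2, which called 1.77% higher and 1.9% lower. Library ranges overlapped for 14 of 14 members. The log2 differences ran from -0.19 to 0.69 with a median of 0.15, against 0.00 over all genes tested, and 11 of 14 were positive. That median had no stable sign: it was -0.09 without IVF-derived replicate 1, -0.03 without IVF-derived replicate 2 and -0.06 without scNT-derived replicate 4, and 0.40 and 0.39 without IVF-derived replicates 3 and 4. It was 0.30 and 0.24 without scNT-derived replicates 1 and 2. The 95% intervals reached from -1.39 to 1.56 over the members, so for several of them the interval holds differences of more than 2-fold. ENSBTAG00000012994 had the lowest estimate, with an interval of -1.39 to 1.02, and member 9 the highest, with an interval of -0.14 to 1.52. Over the 14 members, the medians in IVF-derived and scNT-derived cells had a Spearman rho of 0.943. Each gene's length is shared by both axes, so this is a description.

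Derived cells of scNT origin were next set against the fibroblasts whose line had supplied their nuclei. By limma, 2 members were called higher and 6 lower in the derived cells, where 23.8% of 12583 genes were called higher and 22.3% lower. The fibroblast libraries had been used to choose the members, so the counts are not independent of the choice, nothing is read from them, and the differences below are descriptions without p-values. The median log2 difference was -1.23, against 0.03 over all genes tested.

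The 2 higher members were ENSBTAG00000008483, by 2.66 (SE 0.64), and ENSBTAG00000016881, by 2.56 (SE 0.57), on the log2 scale. The 4 scNT-derived libraries were above the 4 fibroblast libraries for both genes. The lower members included ENSBTAG00000012994, with fibroblast values of 13926.8, 23677.1, 1701.9 and 30907.0 against 482.8, 519.1, 527.4 and 1167.3. Its groups did not overlap, and the difference was -4.19 on the log2 scale (SE 0.84). ENSBTAG00000004570 had scNT-derived values of 148.6, 145.2, 204.4 and 415.8. These lay below its 4 fibroblast values, and the difference was -4.07 (SE 0.84).

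ENSBTAG00000021957 and ENSBTAG00000017834 were also lower, by differences of -3.58 and -3.81, with no overlap between libraries. The other 2 called members, ENSBTAG00000012237 (member 3) and member 7, overlapped the fibroblasts through replicate 3. ENSBTAG00000012237 had fibroblast values of 6804.3, 6799.6, 956.1 and 7506.6 and scNT-derived values of 808.3, 942.6, 1128.9 and 2073.4. Its difference was -1.88 (SE 0.66). Leaving out any 1 of fibroblast replicates 1, 2 and 4 or of scNT-derived replicates 1, 2 and 3 ended that call.

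Without fibroblast replicate 3, 2 members were called higher and 10 lower by limma, and the median difference was -1.95. Calls over all genes also became more frequent, at 30.4% of 12937 genes higher and 29.8% lower. These fibroblast libraries too had been used to choose the members, so nothing is read from these calls either. The difference of ENSBTAG00000012994 became -5.11 and that of ENSBTAG00000004570 became -5.01. Those of ENSBTAG00000008483 and ENSBTAG00000016881 became 1.97 and 1.93. The 4 further members called lower were ENSBTAG00000018229 and members 8, 11 and 13, of which member 13 changed sign, from 0.52 with replicate 3 to -0.54 without it.

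**Figure D3:**
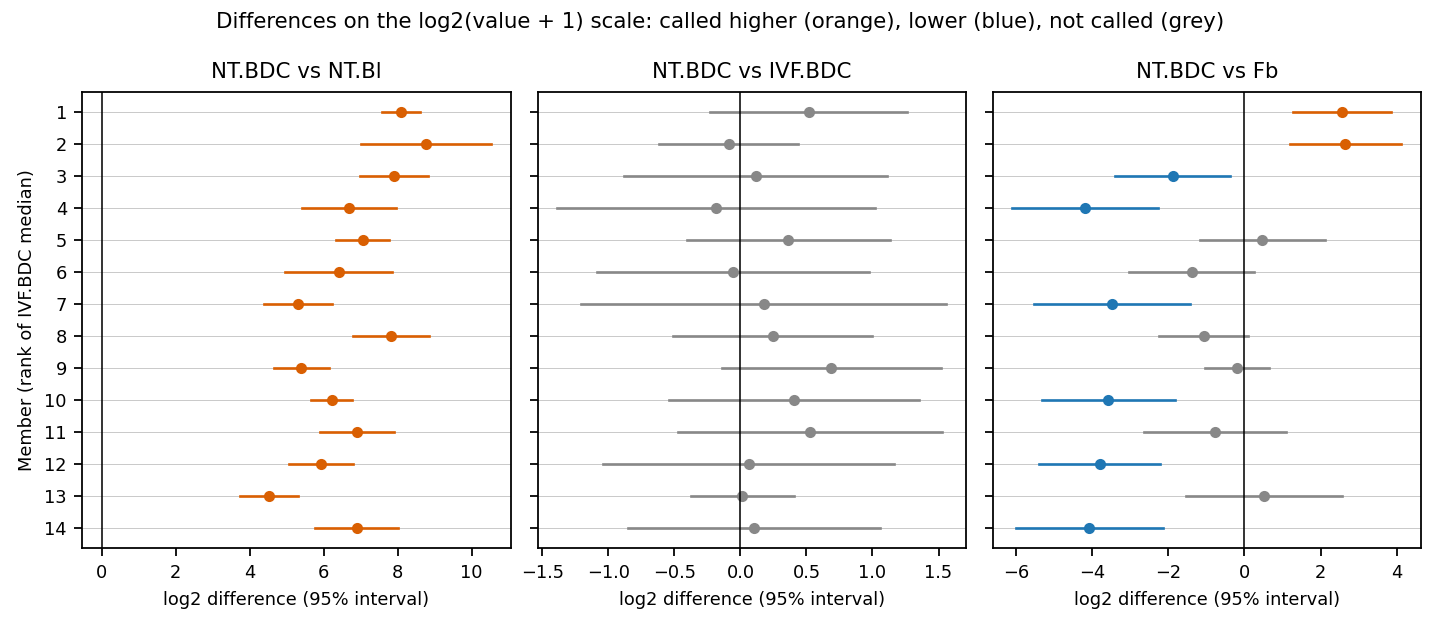
Log2 differences of the tested members with 95% intervals, by comparison, with called members in colour. Differences between scNT-derived cells and scNT blastocysts run from 4.52 to 8.77. Those between scNT-derived and IVF-derived cells scatter around 0 with no call. Those between scNT-derived cells and fibroblasts run from -4.19 to 2.66.

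In scNT embryos the members were low but not equally so at each stage. Averaged over the 14 members, the log2 level was 3.51 ± 0.17 (SD, n = 4) in scNT 2-cell embryos, 3.45 ± 0.12 (SD, n = 4) in 8-cell embryos, 2.86 ± 0.36 (SD, n = 3) in morulae and 2.22 ± 0.18 (SD, n = 4) in blastocysts. IVF embryos stood at 2.09 ± 0.58, 2.82 ± 0.68, 2.60 ± 0.26 and 2.37 ± 0.29 (SD, n = 4 each) at the same stages. At these levels a member was represented by 0 to 73 reads in a library of scNT embryos. The rule held IVF medians at 20 or less, but not single IVF libraries. In IVF 8-cell replicate 4, 9 of 14 members stood at 20 or less. There member 11 reached 79.5 and ENSBTAG00000017834 reached 62.7 normalized counts, above their highest scNT embryo values of 26.2 and 41.4.

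In scNT 2-cell embryos ENSBTAG00000012994 stood at 44.3, 41.0, 17.4 and 40.0 normalized counts, against 1.9, 3.8, 4.6 and 5.3 in IVF 2-cell embryos and 1.8, 4.1, 4.3 and 7.1 in oocytes. Every scNT library was above every IVF and oocyte library. ENSBTAG00000012237 had scNT 2-cell values of 19.8, 32.8, 42.2 and 29.8 against IVF 2-cell values of 0.5, 0, 11.5 and 0.6. Its oocyte values were 0.6, 0.5, 0 and 0. ENSBTAG00000004570 stood at 27.7, 13.9, 32.2 and 51.0 in scNT 2-cell embryos, at 0, 0.6, 4.6 and 0 in IVF 2-cell embryos and at 0 in the 4 oocyte libraries. For these 3 genes the scNT 2-cell libraries lay above the other 2 groups without overlap. ENSBTAG00000012994 and ENSBTAG00000012237 had been named for having the highest scNT 2-cell medians of the set. Among the other named members, ENSBTAG00000018229 also lay above IVF without overlap. ENSBTAG00000016881, ENSBTAG00000008483 and ENSBTAG00000021957 overlapped, and ENSBTAG00000017834 had 39.3 in IVF 2-cell replicate 3, above its scNT 2-cell values of 9.8 to 19.8.

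Over the set, the scNT 2-cell median was above the IVF one for 14 of 14 members, against 52.7% of 12449 genes, and for 5 members every scNT library was above every IVF library. At the 8-cell stage the scNT median was higher for 9 and lower for 5 members, against 59.0% of 13344 genes higher, and for 3 members every scNT library was higher. At the morula stage it was higher for 10 and lower for 3 members, and for 2 every scNT library was higher. At the blastocyst stage it was higher for 6 and lower for 8, and 1 member lay lower without overlap. Over all genes, 52.6% and 48.4% had the higher median in scNT morulae and blastocysts. Every scNT library was above every IVF library in 2.39%, 3.18% and 17.1% of genes at the 2-cell, 8-cell and morula stages, and below in 8.24% at the blastocyst stage. These shares are over genes with a median of at least 10 in either group, which 7, 8, 7 and 2 of the members reached at the 4 stages. The IVF embryos had been used to choose the members as low, so no test was made between scNT and IVF embryos.

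The scNT 2-cell medians stood between 0.0905% and 1.87% of the fibroblast medians of the same genes, or between 0.0819% and 1.75% without fibroblast replicate 3. ENSBTAG00000004570 stood at 0.462%, ENSBTAG00000012237 at 0.46% and ENSBTAG00000012994 at 0.215%, and without replicate 3 at 0.434%, 0.46% and 0.171%. The lowest share was that of ENSBTAG00000021957. Across the 14 members, the fibroblast median had a Spearman rho of 0.771 with the scNT 2-cell median, 0.574 with the 8-cell median and -0.0551 with the morula median. With the IVF 2-cell median rho was 0.13, and with the oocyte median -0.126. Without fibroblast replicate 3 the values were 0.767, 0.578 and -0.0947 with the scNT stages, 0.125 with IVF 2-cell embryos and -0.135 with oocytes. Gene length is shared by both axes of each of these correlations, and they are given as descriptions.

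**Figure D4:**
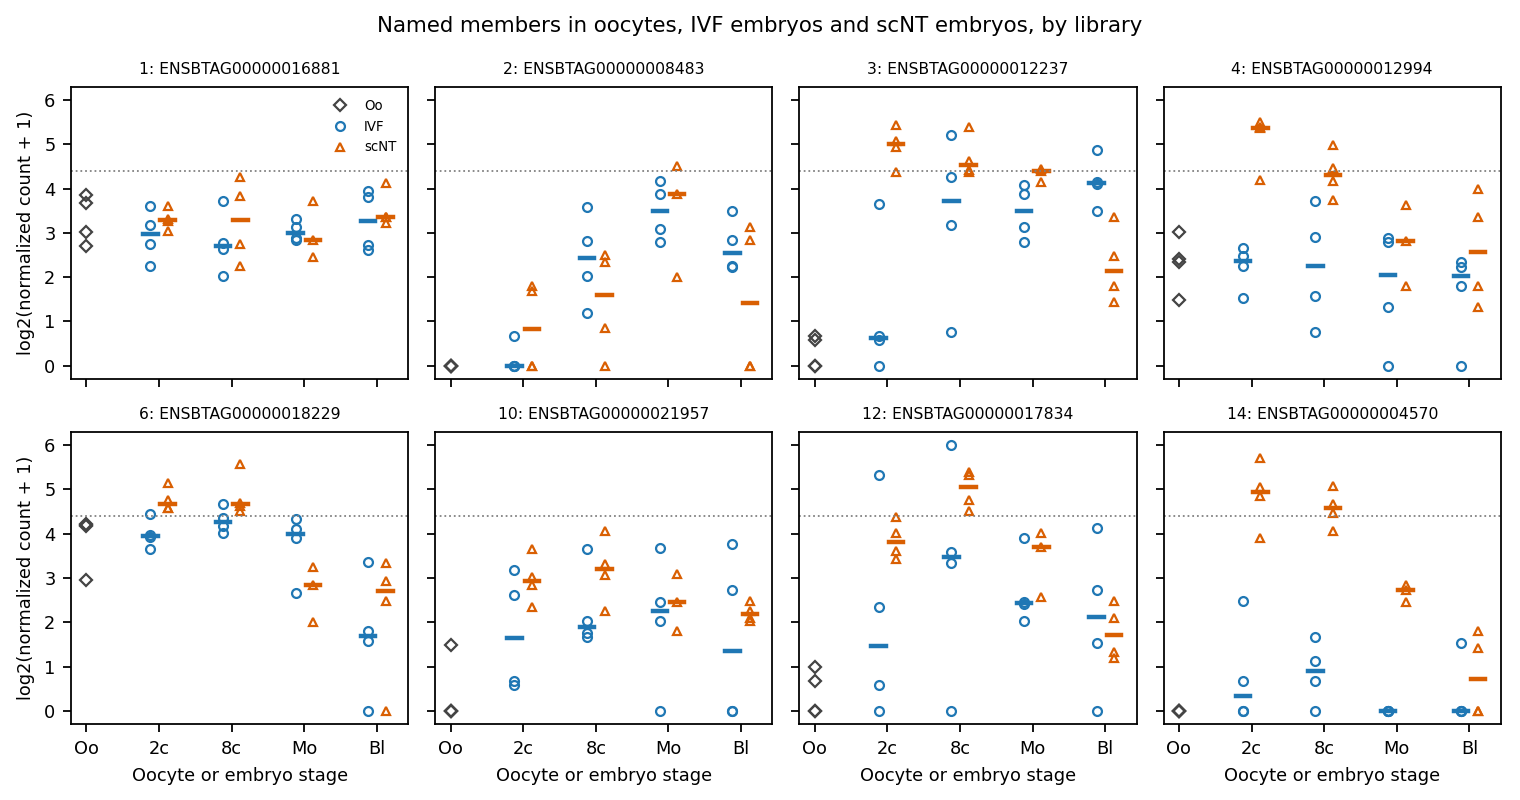
Level of the 8 members named in the text, as log2(normalized count + 1), in oocytes and at each embryo stage, 1 point per library and the median as a bar, IVF beside scNT. The dotted line marks a value of 20, which scNT 2-cell or 8-cell medians of ENSBTAG00000012237, ENSBTAG00000012994, ENSBTAG00000018229, ENSBTAG00000017834 and ENSBTAG00000004570 exceed, and which no scNT morula or blastocyst median exceeds.

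From the 2-cell to the 8-cell stage of scNT embryos, 7 members passed the filter on low values and 0 were called by limma, where 0.821% of 12425 genes were called higher and 4.86% lower. At an unadjusted p under 0.05 the count was 1. With edgeR it was 0, where 1.13% of genes were called higher and 4.77% lower, and with DESeq2 it was 1, where 4.09% were called higher and 8.12% lower. That member was ENSBTAG00000017834 (member 12), with 19.8, 9.8, 11.2 and 15.3 in 2-cell and 41.4, 39.3, 26.3 and 21.9 in 8-cell embryos. Its libraries did not overlap, and its difference was 1.14 (SE 0.34), with an adjusted p of 0.0763 by limma and 0.0426 by DESeq2. It reached 10 in 4 of its 8-cell but 3 of its 2-cell libraries. It thus passed the filter through the stage where it was higher, and these p-values support nothing by themselves. With no filter, 14 members were tested and limma called 0, where 169 of 19859 genes were called higher and 543 lower. The other 6 tested members overlapped, with limma adjusted p-values up to 0.887.

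From the 8-cell stage to the morula, limma called 5 of 9 tested members lower and 0 higher, where 31.2% of 13702 genes were called higher and 37.7% lower. The 5 had all passed the filter through the 8-cell libraries, the stage where they were higher, so that count supports nothing by itself. With no filter, 14 members were tested, 4 fell and 0 rose, where 23.8% of 20203 genes were called higher and 26.7% lower. ENSBTAG00000018229 (member 6) had 24.9, 23.8, 47.0 and 21.9 normalized counts in 8-cell embryos and 8.5, 6.2 and 3.0 in morulae. ENSBTAG00000004570 had 32.9, 21.3, 24.5 and 15.8 in 8-cell embryos and 5.6, 6.2 and 4.5 in morulae. In both genes every morula library was below every 8-cell library. The first fell by 2.16 (SE 0.48, limma adjusted p = 0.00337) and the second fell by 1.90 (SE 0.42, limma adjusted p = 0.0032) on the log2 scale. Both had passed the filter through the 8-cell libraries alone, so these p-values support nothing by themselves. Those with no filter are given below.

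The other 3 called with the filter were ENSBTAG00000012994, ENSBTAG00000017834 and member 11, with limma adjusted p-values of 0.0276, 0.0155 and 0.0442. The 4 tested members that were not called included ENSBTAG00000012237, at 20.4, 23.8, 19.8 and 40.8 in 8-cell embryos and 20.7, 19.9 and 16.6 in morulae. The 5 members with fewer than 3 of the 7 libraries at 10 or more were not tested. ENSBTAG00000018229 and ENSBTAG00000004570 were called in each alternative, with limma adjusted p-values of 0.0041 and 0.00507 when no filter was used. ENSBTAG00000017834 was not called without scNT morula replicate 3 (limma adjusted p = 0.0581), with a replicate block (0.0526) or in a fit over 12 groups (0.147). In turn, ENSBTAG00000012994 was not called without 8-cell replicate 1 or 4 or without morula replicate 3 or 4 (limma adjusted p-values of 0.052 to 0.108). It was also not called by edgeR (adjusted p = 0.053) or DESeq2 (0.0756), with the block (0.106) or in the fit over 12 groups (0.0694). Member 11 was called in 1 of the 7 fits that left out a library, that without 8-cell replicate 3, and not with no filter. Member 9 was higher in morulae, by 1.42 (limma adjusted p = 0.0773), and was called higher by DESeq2, in the fit over 12 groups and without morula replicate 3. In the last of these fits it passed the filter through the morulae alone, where it was higher. ENSBTAG00000008483, at 21.6, 13.7 and 3.0 in morulae and 0, 4.1, 4.7 and 0.8 in 8-cell embryos, was kept out by the filter. Its difference was 2.03 with no filter (limma adjusted p = 0.0573) and 2.76 without morula replicate 4, when it passed the filter and was called higher (limma adjusted p = 0.0188). The library left out there held its lowest morula value, and the gene passed the filter through the other morulae alone. That call therefore supports nothing by itself.

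From the morula to the blastocyst 3 members could be tested and 1 was called lower by limma, where 21.6% of 13236 genes were called higher and 26.1% lower. ENSBTAG00000012237 stood at 1.7, 9.3, 4.6 and 2.5 in blastocysts, below its 3 morula values, and fell by 2.05 on the log2 scale (SE 0.56, limma adjusted p = 0.0151). It had passed the filter through the morulae, where it was higher. With no filter 14 members were tested and limma called 2 lower and 0 higher, this gene (adjusted p = 0.016) and ENSBTAG00000004570 (adjusted p = 0.0465), where 13.8% of 20093 genes were called higher and 18.3% lower. Without scNT morula replicate 2 the limma adjusted p of ENSBTAG00000012237 was 0.0603, and with a replicate block it was 0.0642.

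From the scNT blastocyst to scNT-derived cells, 14 members were called higher by limma and 0 lower, where 32.9% of 12786 genes were called higher and 34.1% lower. No library of either group had been used to choose the members. The members stood at 0 to 17.0 in blastocyst libraries, which is 0 to 13 reads, and they passed the filter through the derived cells, so each had to differ, and the count and differences are given as descriptions. ENSBTAG00000016881 rose from 8.3, 9.3, 9.2 and 16.5 to 3598.4, 3418.6, 3614.6 and 2107.7, a difference of 8.09 (SE 0.24). ENSBTAG00000008483 rose from 0, 6.2, 7.7 and 0 to 1341.8, 711.1, 1522.4 and 1546.9, a difference of 8.77 (SE 0.77). The smallest difference, that of member 13, was 4.52, and the median was 6.78 against -0.03 over all genes tested. How the derived cells were cultured is not described in the labels, and culture cannot be told apart from the step itself.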

How the data were processed

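The members, the thresholds and the lists were chosen with earlier results of these data known. The submitters' processing notes name STAR, DESeq2, FastQC and MultiQC beside build UMD3.1. Tool versions and roles, the annotation and the counter were not given in the sources used here. Per the labels' protocols, libraries came from a low-input kit with several rounds of PCR. The signal deposited by the authors was 1 normalized count per gene and library for 20526 genes. Within a library, values of up to 200 reads were whole multiples of 1 step in 100% of cases (tolerance 0.05), which gave whole reads. These totalled 4608099 to 16642370 per library, and intervals and low values carry counting error on top of the spread between libraries. No pair of replicates agreed within sampling noise, as chi-square over its degrees of freedom was at least 6.67 in all 69 pairs.

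The test was limma 3.58.1 in R 4.3.3, with trend and robust fitting, on log2(value + 1) of the groups compared, without a replicate block. A gene entered it when the number of libraries at 10 or more was no less than the size of the smaller group. Members below that filter were covered by the same fit with no filter. Folds on that scale understate changes of low genes. Tests were two-sided, Benjamini-Hochberg adjusted over all genes tested, and called at an adjusted p under 0.05. edgeR 4.0.16 and DESeq2 1.42.0 on the recovered reads, other filters, pseudocounts, scalings, a fit over 12 groups, a replicate block and leaving out each library were alternatives. The code was tested on simulated data. The deposited files hold no gene names, and 0 of 20526 identifiers matched the reference (ARS-UCD2.0), so the lists, the cell type markers and any sequence were not used here. Identifiers were limited to 2 per direction for each part of the naming rule: the highest medians in scNT-derived cells, scNT 2-cell and scNT 8-cell embryos, the extreme ratios of IVF-derived cells to fibroblasts, and called members without overlap in each test.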

Additional observations from a re-analysis of the deposited data

Results flagged for a closer look

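In groups of 4 libraries, the gap between the highest or lowest library and its nearest neighbour was set against the group's range, for the 8 named members and for the mean level of all 14. Of 96 such sets, 20 exceeded the 95% critical value. The sets share libraries, the mean includes the named members, and many values are a few reads. The usual rate of about 1 in 20 therefore does not apply, and the count of 20 is a description. Fibroblast replicate 3 was far below the other fibroblast libraries in the mean log2 level of the members (7.88), in ENSBTAG00000016881 (138.6), ENSBTAG00000012237 (956.1), ENSBTAG00000018229 (187.5) and ENSBTAG00000004570 (501.3). IVF 2-cell replicate 3 was far above the others of its group in the mean log2 level (2.97), in ENSBTAG00000012237 (11.5), ENSBTAG00000017834 (39.3) and ENSBTAG00000004570 (4.6). In scNT-derived cells replicate 4 was far below the others for ENSBTAG00000016881 (2107.7) and far above them for ENSBTAG00000012994 (1167.3).

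The remaining single values were low in oocyte replicate 3 for ENSBTAG00000018229 (6.8) and in scNT 2-cell replicate 3 for ENSBTAG00000012994 (17.4). They were high in scNT 8-cell replicate 3 for ENSBTAG00000018229 (47.0), in scNT blastocyst replicate 4 for ENSBTAG00000016881 (16.5), in IVF 8-cell replicate 4 for ENSBTAG00000021957 (11.6) and in IVF morula replicate 3 for ENSBTAG00000017834 (13.9). At the level of 1 to a few reads, ENSBTAG00000021957 in oocyte replicate 1 (1.8), ENSBTAG00000008483 in IVF 2-cell replicate 4 (0.6) and ENSBTAG00000004570 in IVF blastocyst replicate 1 (1.9) were high because the other libraries were at 0.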

How the results depend on the processing

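The number of genes that met the rule was 15 with group means (12 of the members among them), 12 after rescaling to equal library totals and 15 without fibroblast replicate 3 (14 of the members among them). The count of 8 members that met the thresholds in scNT samples was 6 with means, 7 with equal totals and 7 to 9 on leaving out 1 library. The step from scNT morula to blastocyst, with 1 call, gave 2 calls with no filter, 0 with a replicate block and 0 to 2 on leaving out 1 library. The step from 8-cell embryo to morula, with 5 calls, gave 3 by edgeR, 3 in a fit over 12 groups (1 higher, 2 lower), 2 with a replicate block and 3 to 5 on leaving out 1 library; ENSBTAG00000018229 and ENSBTAG00000004570 were called under each of these. There DESeq2 gave 4 calls, 1 of them higher. DESeq2 gave 1 call from the 2-cell to the 8-cell stage. The replicate block gave 14 calls for derived cells against blastocysts, 0 against IVF-derived cells and 8 against fibroblasts. Equal numbers are not tied to shared animals in the labels. For scNT-derived cells against fibroblasts, 8 of 8 libraries deviated most like the library of equal number in the other group (Pearson r from 0.067 to 0.213). Against IVF-derived cells 5 of 8 did (0.016 to 0.426), and against blastocysts 2 of 8 (-0.068 to 0.101). Between scNT embryo stages 0 did. What equal numbers share was not tested, and the main fits hold no block. With equal totals the median difference over all genes shifted from -0.03 to 0.26 for derived cells against blastocysts, from -0.09 to -0.49 for blastocysts against morulae, from 0.03 to 0.22 against fibroblasts and from 0.03 to 0.13 for 8-cell against 2-cell embryos. No called member changed direction under these alternatives; member 13, not called against fibroblasts with all libraries, was called lower without fibroblast replicate 3 after a difference above 0. The cause of these shifts was not tested. Embryo levels of a few reads limit what could be called there.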
